A study of Homo sapiens with 2 samples.

Results

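The genes described here are the 150 protein-coding genes whose symbols join VPS, CHMP, SNX or RAB to a number, out of 20033 protein-coding genes on chromosomes 1 to 22, X and Y of the RefSeq table of GRCh38.p14. They were chosen by symbol; the rule uses no ChIP-seq value, but it was set with earlier results of these data known. The measurement was chromatin immunoprecipitation with an antibody to WSTF, the bromodomain protein encoded by BAZ1B, in SW620 cells, an established colorectal adenocarcinoma line. The series has 2 samples, SW620-IP and SW620, both from the same line and fixed with 1% formaldehyde; the labels do not name the second as input, and the series mentions both knockdown and overexpression of WSTF, so the WSTF level of the cells is unknown. A single list of 2697 peak summits was analysed. There were no replicate lists, so nothing below is a comparison between conditions, and intervals cover counting error only. No RNA was measured, so neither the identity of the line nor the expression of any gene was checked.

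Endosomes sort proteins taken up from the cell surface. ESCRT complexes capture ubiquitinated receptors and bud them into the endosome lumen for degradation, with CHMP proteins forming the filaments and VPS4 ATPases taking them apart. Retromer, retriever and many sorting nexins (SNX), which bind phosphoinositides on the endosome membrane, return cargo to the cell surface or the Golgi. RAB proteins are small GTPases that give each compartment its identity and recruit tethers such as the HOPS, CORVET, GARP and EARP complexes, which are built largely from VPS proteins.

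A summit lay in or within 1 kb of 30 of the 150 genes (20%, exact Clopper-Pearson 95% interval 13.9 to 27.3), against 13.8% of all protein-coding genes, members included. The remaining 120 genes had none. Together the 30 genes held 32 summits, since SNX15 and SNX25 had 2 each. The lower bound of the interval lies just above the share for all protein-coding genes, and because the genes were taken up with earlier results of this list known, no test was made of the difference.

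By role, the retromer and retriever genes had summits at 4 of 6 (66.7%, 22.3 to 95.7) and the sorting nexins at 8 of 30 (26.7%, 12.3 to 45.9). RAB GTPases had 10 of 64 (15.6%, 7.76 to 26.9), and proteins named for binding RABs had 2 of 10 (20%, 2.52 to 55.6). ESCRT genes had 3 of 20 (15.0%, 3.21 to 37.9), as did the remaining VPS genes, most of which encode tethering and lipid transfer proteins. The 13.8% of all protein-coding genes lay inside each of these intervals except that of retromer and retriever, a group of 6 genes. With summits at or above the median score alone, retromer and retriever had 2 of 6, against 7.32% of all protein-coding genes.

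**Figure D1:**
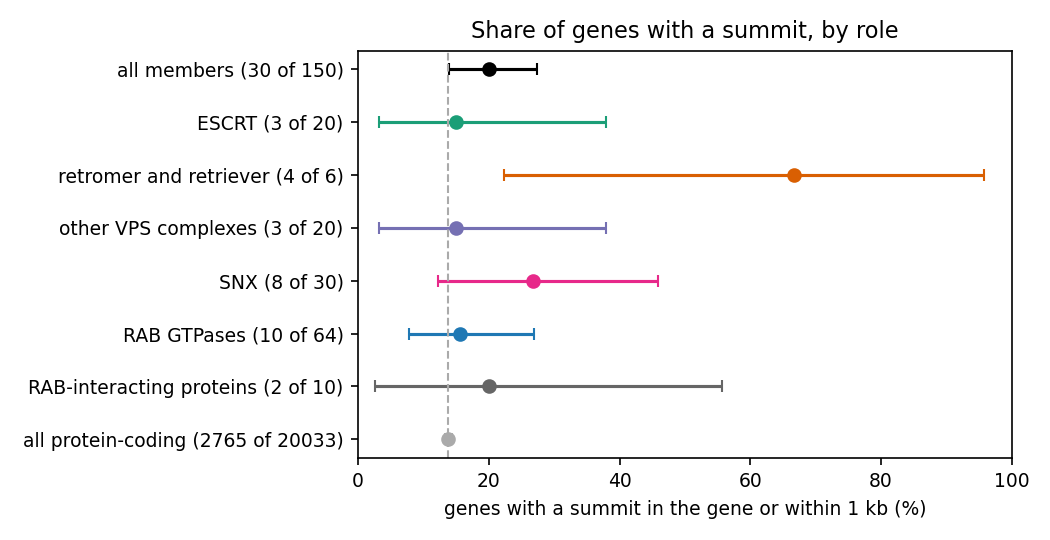
Share of genes holding a summit or having one within 1 kb (horizontal axis, percent) for all 150 genes, for each role and for all protein-coding genes; points are shares, bars exact 95% intervals, and the dashed line marks 13.8%. Retromer and retriever stand highest at 66.7% with the widest interval of the roles, and ESCRT, other VPS complexes and RAB GTPases lie at 15.0 to 15.6%.

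The promoter sequences of several of these genes are shown first, because most of the summits fell at promoters. They are the 200 bases before the RefSeq transcription start (GRCh38.p14), written 5′ to 3′ in the direction of transcription, and distances are counted from that start with negative values upstream. The first set shows the 4 promoters with a summit in the table's window that hold an NRF1 motif (GCATGCGC) or a cAMP response element (CRE, TGACGTCA), marked in capitals. VPS26B lies at chr11:134224471-134224670 (plus strand), RAB18 at chr10:27504104-27504303 (plus), RAB5IF at chr20:36605579-36605778 (plus) and SNX5 at chr20:17968795-17968994 (minus).
VPS26B: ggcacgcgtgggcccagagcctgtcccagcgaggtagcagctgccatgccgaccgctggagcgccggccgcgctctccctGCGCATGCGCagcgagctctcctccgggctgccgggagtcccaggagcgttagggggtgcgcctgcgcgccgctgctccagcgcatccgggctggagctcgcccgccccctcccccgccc
RAB18: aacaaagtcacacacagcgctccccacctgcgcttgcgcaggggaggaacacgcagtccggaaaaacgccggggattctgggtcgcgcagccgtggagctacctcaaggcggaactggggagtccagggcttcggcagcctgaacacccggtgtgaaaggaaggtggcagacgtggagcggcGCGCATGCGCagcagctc
RAB5IF: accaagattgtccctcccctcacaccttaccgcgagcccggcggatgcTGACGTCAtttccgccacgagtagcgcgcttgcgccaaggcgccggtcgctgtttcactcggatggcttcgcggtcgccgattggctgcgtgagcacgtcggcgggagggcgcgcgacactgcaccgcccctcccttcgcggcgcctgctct
SNX5: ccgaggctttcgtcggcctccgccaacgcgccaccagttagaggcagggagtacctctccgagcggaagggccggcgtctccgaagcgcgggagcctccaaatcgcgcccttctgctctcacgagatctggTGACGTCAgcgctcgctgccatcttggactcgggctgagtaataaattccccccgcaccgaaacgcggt
In VPS26B the motif matched on both strands in overlapping copies, from base -120 to -111, and the summit lay at -109. In RAB18 the overlapping matches spanned -18 to -9 and the summit lay at -48. The CRE of SNX5 began at -69 with the summit at -35, and that of RAB5IF began at -152 with the summit at -106. These are matches of letters near a summit and do not show that any factor binds there.

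The second set shows the 2 genes with the highest scores, with GC boxes (GGGCGG on either strand) in capitals. RAB22A lies at chr20:58309515-58309714 (plus) and VPS4A at chr16:69311150-69311349 (plus).
RAB22A: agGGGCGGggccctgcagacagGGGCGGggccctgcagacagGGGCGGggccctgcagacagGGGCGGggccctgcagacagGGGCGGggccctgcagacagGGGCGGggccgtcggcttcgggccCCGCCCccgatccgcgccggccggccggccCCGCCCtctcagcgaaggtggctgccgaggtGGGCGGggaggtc
VPS4A: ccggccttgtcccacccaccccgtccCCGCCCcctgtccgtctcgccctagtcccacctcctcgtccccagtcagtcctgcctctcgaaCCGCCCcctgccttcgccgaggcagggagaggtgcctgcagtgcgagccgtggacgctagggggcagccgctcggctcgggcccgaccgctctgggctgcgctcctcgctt
RAB22A had 9 GC boxes in this stretch and VPS4A had 2. The summits lay downstream of the start, at 125 in RAB22A and 214 in VPS4A, and so outside the bases shown. Over the table's whole 300-base window RAB22A had 11, a number reached by 13 of 15842 protein-coding promoters (0.0821%), whose median was 1. Part of the boxes of RAB22A sit in a tandem repeat, and those after base -91 do not: a unit of 20 bases, ccctgcagacaggggcgggg, occurred in 8 exact copies from base -250, where the window begins, to -91. The effect of this repeat on read alignment and on the score was not tested.

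The third set shows 2 subunits of the retrieval complexes and 1 of a tether, with CCAAT boxes (CCAAT on either strand) in capitals. VPS29 lies at chr12:110502112-110502311 (minus), VPS26C at chr21:37268109-37268308 (minus) and VPS41 at chr7:38909192-38909391 (minus).
VPS29: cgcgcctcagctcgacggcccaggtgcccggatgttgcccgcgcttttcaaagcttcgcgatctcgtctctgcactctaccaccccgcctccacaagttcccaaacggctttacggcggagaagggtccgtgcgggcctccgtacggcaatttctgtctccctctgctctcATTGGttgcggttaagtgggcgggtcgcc
VPS26C: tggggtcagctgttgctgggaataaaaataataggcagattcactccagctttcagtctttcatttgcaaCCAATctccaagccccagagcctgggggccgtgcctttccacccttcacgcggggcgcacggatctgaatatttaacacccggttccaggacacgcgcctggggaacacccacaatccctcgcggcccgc
VPS41: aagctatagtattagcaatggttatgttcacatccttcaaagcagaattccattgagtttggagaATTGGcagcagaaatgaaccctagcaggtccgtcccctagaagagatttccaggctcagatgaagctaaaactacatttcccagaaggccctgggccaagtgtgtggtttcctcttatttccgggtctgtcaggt
The CCAAT boxes began at base -29 in VPS29, at -130 in VPS26C and at -135 in VPS41. The summits lay at 258, 66 and -1 in that order, so only that of VPS41 fell within the bases shown. The promoter of VPS41 was the poorest in G and C of the 22 shown or counted here, at 45.3%.

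Each summit carries the authors' score, taken to be the −log10 q of each peak and used here only to rank summits within the list. The 32 summits had scores between 1.73 and 19.2 with a median of 4.22, against a median of 3.72 for the 2435 summits at all protein-coding genes. An interval for the median of the 32, taken from their ranked scores, ran from 3.43 to 5.32 and so contained 3.72. A score of 10 or more was reached by 4 of the 32 (12.5%), against 38 of the 2435 (1.56%). At or above the list's median were 20 of the 32 (62.5%), against 1253 of the 2435 (51.5%). The 4 highest were at RAB22A, VPS4A, SNX19 and SNX15. The cut of 10 falls between the SNX15 score of 10.5 and the next, 8.38 at RAB11FIP1. This SNX15 summit lay 443 bp outside SNX15 and 82 bp from an end of SAC3D1. No interval was computed for the share at 10 or more, and no test was made of the difference in scores.

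**Figure D2:**
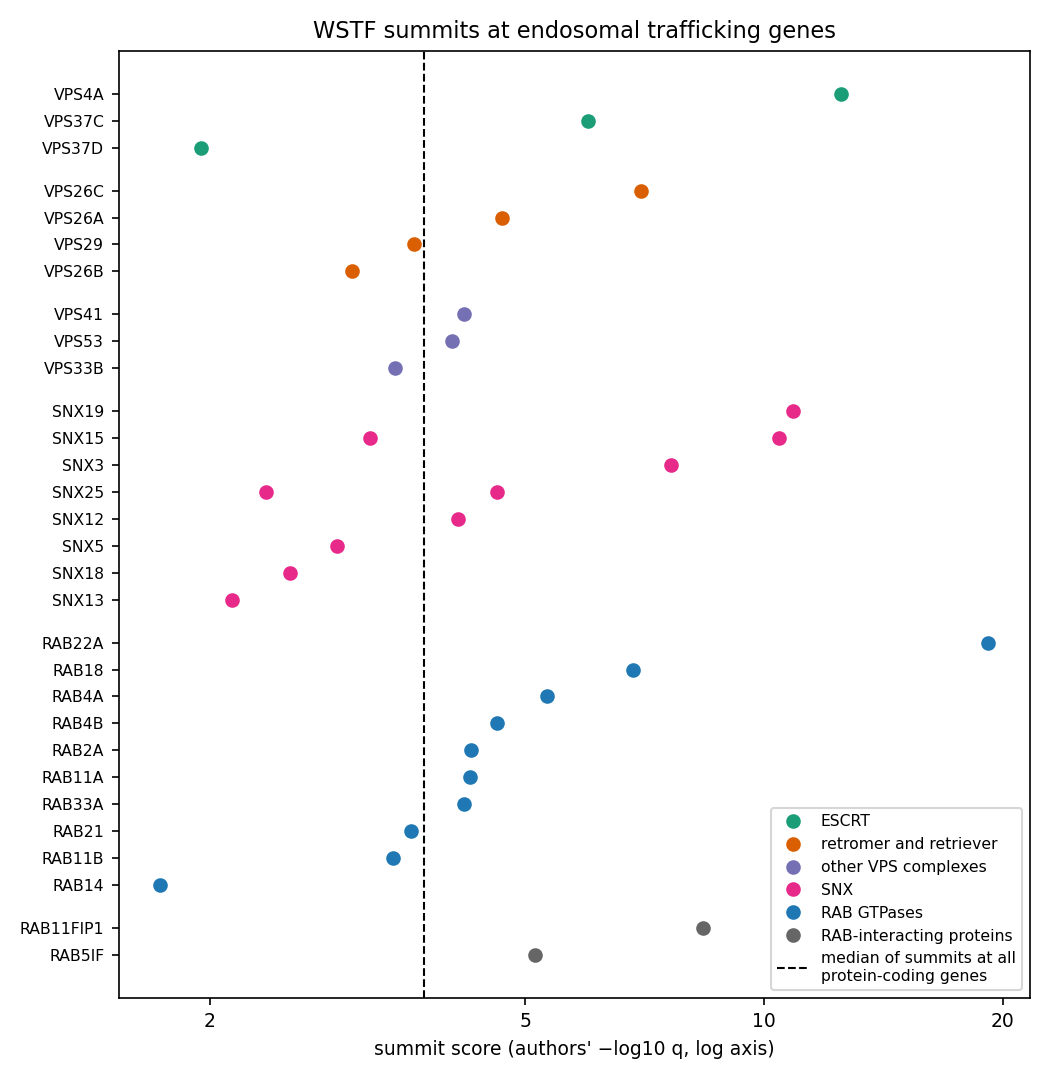
Score of each of the 32 summits (horizontal log axis, −log10 q), with 1 row per gene grouped by role; the dashed line marks the median of summits at all protein-coding genes, 3.72. RAB22A (19.2), VPS4A (12.5), SNX19 (10.9) and 1 of the SNX15 summits (10.5) stand to the right of the rest, and the 3 summits at other VPS complexes lie closest together, between 3.43 and 4.18.

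Among the ESCRT genes, VPS4A encodes an ATPase that disassembles ESCRT-III filaments. Its summit, at chromosome 16 position 69311564, scored 12.5, ranked 17th of 2697 and lay 214 bp downstream of the start of the gene (69311350 to 69326939). Its paralog VPS4B, on chromosome 18, had none. VPS37C and VPS37D encode interchangeable subunits of ESCRT-I, the complex that hands ubiquitinated cargo on. VPS37C had a summit at chromosome 11 position 61161618 (score 6.01), 192 bp outside the gene, and VPS37D had one at chromosome 7 position 73667809 (score 1.95), 22 bp upstream of its promoter start. VPS37A, VPS37B and the ESCRT-I gene VPS28 had none, nor did the ESCRT-II genes VPS25 and VPS36. None of the 11 CHMP genes, which encode ESCRT-III, had a summit (interval to 28.5%), and the nearest one to any of them lay 3083 bp from CHMP1B. Among the ESCRT genes named VPS or CHMP, those with summits were thus of ESCRT-I and the ATPase, but with so few genes the share in ESCRT-III is not shown to differ.

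Retromer is a trimer of VPS35, VPS29 and a VPS26 paralog. Summits were found at VPS26A (chromosome 10 position 69124118, score 4.67), VPS26B (chromosome 11 position 134224562, score 3.02) and VPS29 (chromosome 12 position 110501853, score 3.62). They lay 60 bp outside VPS26A, 109 bp upstream of the VPS26B start and 258 bp downstream of the VPS29 start. VPS35, the scaffold, had none. In retriever, which recycles integrins and other receptors, the VPS26-like subunit VPS26C had a summit at chromosome 21 position 37268042 (score 6.99), 66 bp downstream of its start, whereas the scaffold VPS35L had none. All 3 VPS26 paralogs and the shared subunit VPS29 thus had summits, with scores from 3.02 to 6.99, and both scaffold genes lacked them.

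Genes grouped here as HOPS and CORVET had summits at 2 of 8 and GARP and EARP genes at 1 of 5. The group of 8 includes VPS33B, placed there as a relative of VPS33A and not as a subunit of either complex. VPS41, a subunit of HOPS, which tethers late endosomes to lysosomes, had a summit at chromosome 7 position 38909192 (score 4.18), 1 bp upstream of its start. VPS33B, a relative of the HOPS subunit VPS33A, had one at chromosome 15 position 91022348 (score 3.43), 273 bp inside the gene and 274 bp from its divergent transcript VPS33B-DT. VPS53, a subunit shared by GARP and EARP, had one at chromosome 17 position 714826 (score 4.04), 13 bp inside the gene. The other HOPS and CORVET genes (VPS8, VPS11, VPS16, VPS18, VPS33A and VPS39), the other GARP and EARP genes (VPS50, VPS51, VPS52 and VPS54), the 4 lipid transfer genes VPS13A to VPS13D and the genes VPS45, VPS9D1 and VPS72, the last a chromatin remodelling subunit, had none. VPS13 genes are long, with a median of 263011 bp, but with 0 of 4 the interval runs to 60.2%.

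Sorting nexins fall into subfamilies by the domain that accompanies the phosphoinositide-binding PX domain. SNX3, which brings retromer to early endosomes, had a summit at chromosome 6 position 108261234 (score 7.63), 194 bp upstream of its start. SNX12, its closest relative, had one at chromosome X position 71068406 (score 4.12), but 5020 bp downstream of the start, inside the gene. SNX5, which has a membrane-bending BAR domain and works in tubular carriers, had one at chromosome 20 position 17968829 (score 2.89), 35 bp upstream of its start, and SNX18, another BAR-domain nexin, had one at chromosome 5 position 54517715 (score 2.52), 44 bp upstream. SNX1 and SNX2, the partners of SNX5, and its paralogs SNX6 and SNX32 had none. Of the nexins with a PXA domain, SNX19 had the third highest score of all members at chromosome 11 position 130916439 (10.9), 40 bp inside the gene, and SNX13 one of the lowest at chromosome 7 position 17940390 (2.13), 104 bp downstream of its start. SNX14, of the same subfamily, had none.

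SNX25, also of the PXA group, held 2 summits. The stronger, at chromosome 4 position 185209532 (score 4.60), lay 66 bp upstream of the promoter start in the table, and the weaker, at 185204122 (score 2.36), lay 115 bp outside the outer end of the gene and at -5476 bp from that start. The outer end and the promoter start of SNX25 are thus different positions, with a summit near each. The stronger summit lay 5295 bp from the outer end of SNX25 but 716 bp from an end of CFAP97, a coding gene on the other strand. The promoter start of CFAP97 lay close to the weaker summit. The list does not tell whether either summit belongs to SNX25 or to CFAP97. SNX15 also held 2 summits. The weaker of these, at chromosome 11 position 65027432 (score 3.19), was 7 bp upstream of the SNX15 start, while the stronger, at 65041015 (score 10.5), was 443 bp beyond the other end of SNX15 and 82 bp from an end of SAC3D1. The high score counted for SNX15 therefore lies nearer to another gene.

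RAB GTPases with summits came from several compartments. RAB22A, an early endosome GTPase that acts in recycling, had the highest score of all members at chromosome 20 position 58309840 (19.2, ranked 7th of 2697), 125 bp downstream of the start of the gene (58309715 to 58367507). Its close relative RAB31 had none. RAB4A and RAB4B, which act in fast recycling from early endosomes, both had summits, at chromosome 1 position 229271113 (score 5.32), 2 bp downstream of the start, and at chromosome 19 position 40778095 (score 4.60), 152 bp upstream. RAB11A and RAB11B, which mark the recycling endosome, also both had summits, at chromosome 15 position 65869243 (score 4.26), 248 bp upstream, and at chromosome 19 position 8390499 (score 3.40), 139 bp downstream. Both genes of each of these 2 pairs thus had a summit. RAB25, which is related to RAB11A and RAB11B, had none, and the nearest summit was 43883 bp away.

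Of the other RABs, RAB18, linked to the endoplasmic reticulum and lipid droplets, had a summit at chromosome 10 position 27504256 (score 6.84), 48 bp upstream of its start. RAB2A, of the early secretory pathway, had one at chromosome 8 position 60516743 (score 4.27), 167 bp outside the gene. RAB21, which regulates integrin endocytosis, had one at chromosome 12 position 71754970 (score 3.59), 107 bp downstream of its start. The remaining pair lay nearer to a neighbouring coding gene. The summit counted for RAB33A, at chromosome X position 130166115 (score 4.18), was 18755 bp from the nearer end of RAB33A and 274 bp from an end of AIFM1. That of RAB14, at chromosome 9 position 121201476 (score 1.73, the lowest of the 32), was 393 bp downstream of the RAB14 start. It lay 7 bp from an end of GSN. No summit was found at RAB5A, RAB5B or RAB5C, which define early endosomes, at RAB7A, which defines late endosomes, or at RAB9A, which acts between late endosomes and the Golgi.

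Among the proteins named for binding RABs, RAB11FIP1, an effector of RAB11 in recycling, had a summit at chromosome 8 position 37898943 (score 8.38), 554 bp inside the gene. RAB5IF had one at chromosome 20 position 36605673 (score 5.14), 106 bp upstream of its start. The other RAB11FIP genes and the subunits RAB3GAP1 and RAB3GAP2 of a RAB regulator had none.

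The summits sat close to gene ends. Of the 32, 28 (87.5%, 71.0 to 96.5) lay within 1 kb of an outer end of the gene, against 81.1% of gene and summit pairs at all protein-coding genes, and 23 (71.9%, 53.3 to 86.3) lay within 250 bp, against 51.5%. The promoter table gives a start and a strand for 114 of the 150 genes, 22 of them with a summit. Of the 24 summits at these 22 genes, 21 were within 1 kb of the start, 12 of them upstream and 9 downstream, with a median of -7 bp and quartiles at -66 and 107 bp. At all protein-coding genes with an entry, the 1955 pairs of a gene and a summit within 1 kb of its start had a median of -23 bp and quartiles at -182 and 153 bp. Within 300 bp of the start lay 20 of the 24 (83.3%), against 1438 of 2471 such pairs (58.2%).

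**Figure D3:**
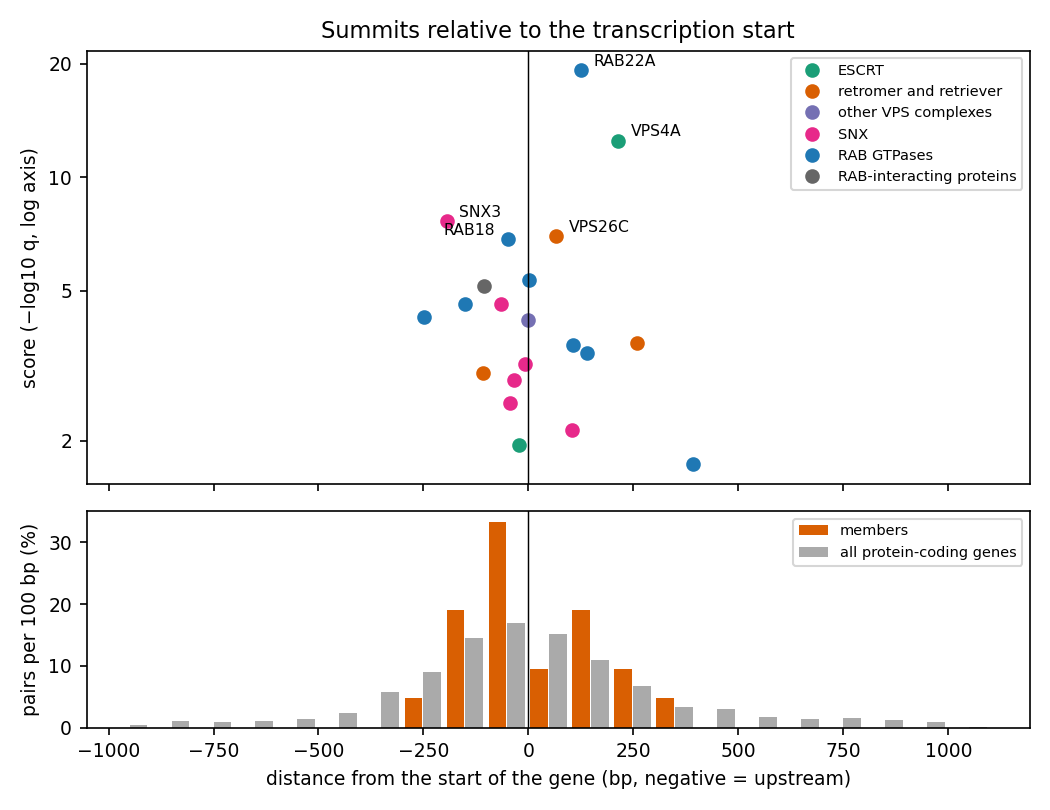
Upper panel: distance of 21 summits from the start of their gene (horizontal axis, bp, negative upstream) against score (vertical log axis, −log10 q), coloured by role. Lower panel: percent of the gene and summit pairs within 1 kb that fall in each 100 bp bin, for the endosomal genes (members, orange, 21 pairs) and all protein-coding genes (grey, 1955 pairs). All 21 lie between -248 and 393 bp, and the 2 highest, RAB22A and VPS4A, lie downstream of the start.

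Several summits lay near ends of more than 1 gene. Of the 32, 6 (18.8%, 7.21 to 36.4) lay within 1 kb of ends of at least 2 protein-coding genes, against 397 of 2435 (16.3%) at all protein-coding genes. The summit of VPS29 was 478 bp from RAD9B, that of SNX5 239 bp from MGME1, that of VPS26B 899 bp from NCAPD3 and that of RAB4B 605 bp from MIA, and the SNX15 and RAB14 summits near SAC3D1 and GSN make up the 6. Non-coding neighbours were also close: RAB4A-AS1 lay 41 bp and RAB11B-AS1 192 bp from the summits of RAB4A and RAB11B, and a glutamine tRNA gene 110 bp from that of RAB11A. The non-coding gene LOC124901949 lay 55 bp from the RAB2A summit, and RAB4B-EGLN2 lay 124 bp from that of RAB4B. Both of these, and the tRNA gene, ended nearer to the summit than the RAB gene did. A summit list does not tell which of 2 adjoining genes a peak belongs to.

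Gene length and promoter composition were looked at because the counting window includes the gene and most summits were at promoters. The 150 genes had a median length of 35337 bp, against 24130 bp for all protein-coding genes, and those with and without a summit had medians of 36360 and 35337 bp. Among genes at or above 24130 bp, 19 of 93 had a summit (20.4%, 12.8 to 30.1), against 15.4% of all protein-coding genes of that class, and among shorter genes 11 of 57 (19.3%, 10.0 to 31.9), against 12.2%. Promoters of the 22 genes with a summit had a median GC content of 68.2%, those of the 92 without one 65.8%, and all protein-coding promoters 62.7%. For all protein-coding promoters the median was 68.0% with a summit and 61.7% without. Where the promoter had a GC content of 60% or more, 20 of 89 genes had a summit (22.5%, 14.3 to 32.6), against 19.6% of all such protein-coding genes; under 60% it was 2 of 25 (8%, 0.984 to 26.0), against 7.1%. The GC classes cover only the 114 genes with a promoter entry. In all 4 classes the share of all protein-coding genes lay inside the interval of the endosomal genes, and the part of length or composition in the count was not tested.

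**Figure D4:**
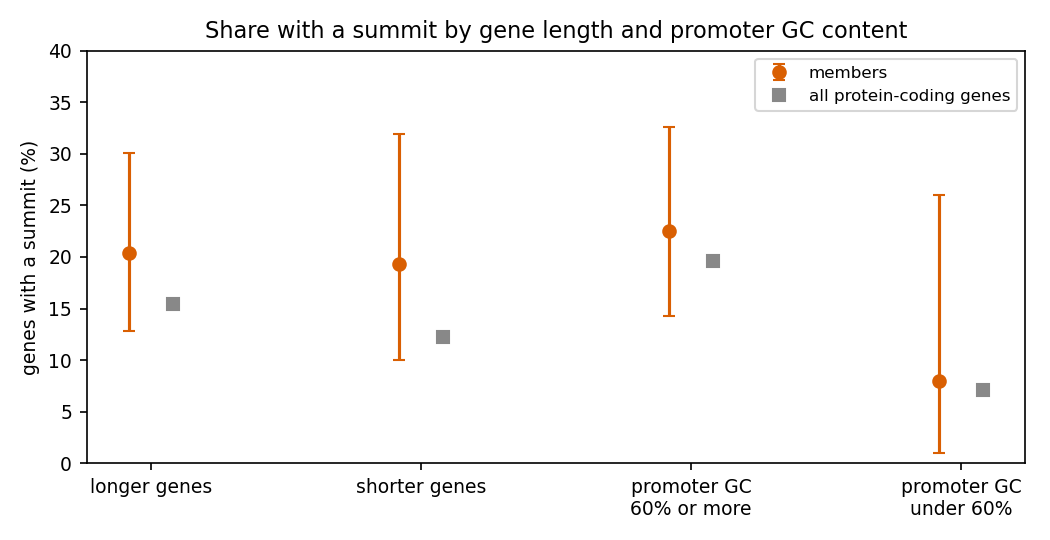
Percent of genes with a summit (vertical axis) for the endosomal genes (members, orange, exact 95% intervals) and all protein-coding genes (grey), split by gene length at 24130 bp and by promoter GC content at 60%. The 2 shares differ by less in the GC classes (22.5% against 19.6%, and 8% against 7.1%) than in the length classes (20.4% against 15.4%, and 19.3% against 12.2%).

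Short sequence motifs of common promoter factors were counted on either strand in the table's 300-base promoter windows, which run from 250 bases before the start to 50 after it. The GC box (GGGCGG) was in 16 of the 22 promoters with a summit, 71 of the 92 without one and 58.5% of all protein-coding promoters. The CCAAT box (CCAAT) was in 8, 21 and 36.4%, and the short CRE core (TGACG), which the full CRE contains, in 6, 38 and 29.5%. Rarer motifs were YY1 (AAGATGGCG) in 3, 3 and 2.74%, NRF1 in 2, 3 and 4.26%, the full CRE in 2, 4 and 2.59% and the ETS motif (CCGGAAGT) in 1, 11 and 6.19%. The E-box (CACGTG) was in 2, 12 and 8.88%, and its longer form TCACGTGA, a match to the CLEAR element of lysosomal genes, in 1 (RAB21), 4 and 1.43%. Among all protein-coding promoters with a summit, the GC box was in 75.6%, against 72.7% of the 22. In the same promoters the CCAAT box was in 35.6%, the short CRE core in 35.8% and the E-box in 12.1%. ETS was in 8.98% of them, NRF1 in 7.25%, YY1 in 4.4%, the full CRE in 3.63% and TCACGTGA in 2.25%. No motif was present in more than 16 of the 22, and the rare ones rest on 3 promoters or fewer.

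Other genes of the pathway, whose symbols fall outside the naming rule, were listed by role. Of 96 such genes, 24 had a summit (25%, 16.7 to 34.9), against 13.8% of all protein-coding genes. Among ESCRT partners there were 4 of 14, namely HGS (8.24) and STAM (4.12), which form the cargo-binding ESCRT-0, the ESCRT-II gene SNF8 (4.44) and IST1 (7.71), an ESCRT-III relative. Partners of retromer, retriever and the WASH complex had 2 of 22, COMMD6 (7.05) and EHD1 (6.61). Regulators and prenylation factors of RABs had 7 of 22: GDI2 (3.59), which extracts RABs from membranes, USP6NL (3.13), RABGGTA (1.75), RABIF (2.36), RABEP1 (2.55), RABGEF1 (3.02) and MON1A (1.95). All 7 scored below the list median of 3.72.

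Tethers, SNAREs and phosphoinositide enzymes had 5 of 27, namely MTMR2 (6.20), STX7 (5.81), AKTIP (5.30), the RAB5 effector EEA1 (4.51) and VAC14 (1.69). The cargo list, of receptors and other membrane proteins such as CD63 and LAMP1, had 6 of 11. These were the transferrin receptor gene TFRC (7.47), CD63 (7.22), IGF2R (6.07), LAMP1 (6.04), ITGB1 (5.82) and EGFR (2.87). Of the 5 partner lists the cargo list had the highest share (54.5%, 23.4 to 83.3), and the summit of EGFR lay 25314 bp from an end of the gene, unlike those of TFRC and ITGB1, at 113 and 184 bp. These lists were also drawn up with earlier results of the summit list known.

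Members with summits were spread over 17 chromosomes. Chromosome 11 held 4 of its 13 members (SNX15, SNX19, VPS26B and VPS37C), where 20.9% of all protein-coding genes had a summit, and chromosome 20 held 3 of 6 (RAB22A, RAB5IF and SNX5), where the share was 27.2%. Chromosome 17, at 20.9%, held 1 of 9, VPS53. The 10 members on chromosome 2 and the 7 on chromosome 3 had none, where 12% and 13.1% of all protein-coding genes did.

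The count was 30 with windows of 250 bp, 500 bp and 1 kb, so each of the 30 genes had a summit inside it or within 250 bp. Counting summits inside the gene alone gave 17, against 8.12% of all protein-coding genes, and counting summits at or above the median score gave 20, against 7.32%. Summits within 1 kb of a gene end were found at 27, against 11.6%. The nearest genes beyond were RAB26, 1558 bp from a summit of score 8.60, and VPS11, 3028 bp from one of score 7.60. With 5 kb the count was 35, against 15.6% of all protein-coding genes, and with 10 kb it was 42, against 17.8%.

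**Figure D5:**
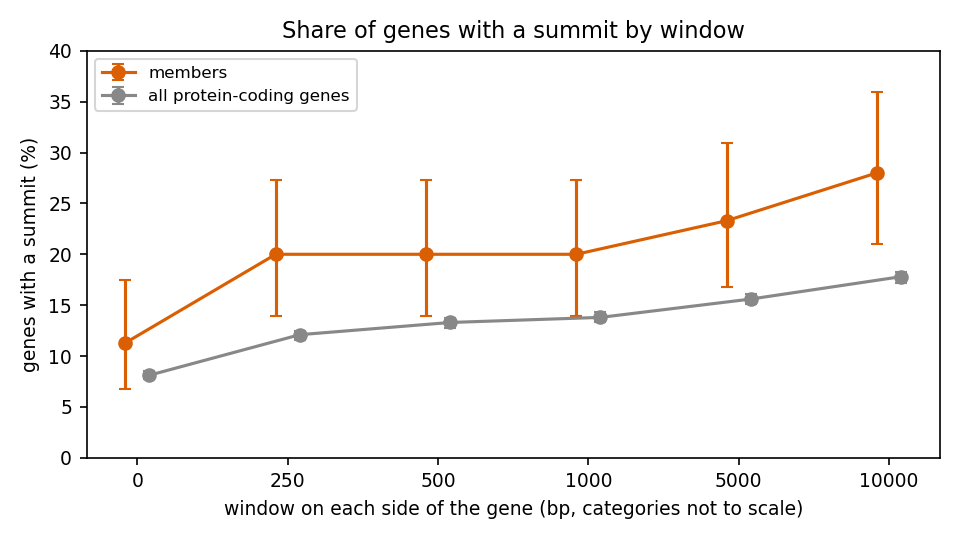
Percent of genes with a summit (vertical axis, bars exact 95% intervals) for windows from 0 to 10000 bp on each side of the gene, for the endosomal genes (members, orange) and all protein-coding genes (grey). The endosomal genes stay at 20% from 250 to 1000 bp and reach 28.0% at 10000 bp, where all protein-coding genes reach 17.8%.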

How the data were processed

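WSTF ChIP-seq of SW620 cells was available as 1 deposited list of summits. Reads were handled with Trimmomatic 0.39, Bowtie2 2.4.4 (hg38) and MACS2 2.2.7.1, per the submitters' processing notes, and input DNA served as control, per the design text. Pooling of replicates is not stated. The score deposited by the authors was read as −log10 of the q-value, since it starts at 1.31, just above the 1.30 of a q of 0.05. The list holds no reads, so depth is unknown.

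Summits were assigned to RefSeq GRCh38.p14 genes by outer start and end, with a window of 1 kb, in Python 3.11.15 with pandas 2.3.3, numpy 2.4.6 and scipy 1.17.1; the overlap step was tested on simulated data. Starts, strands and promoter sequences came from the RefSeq promoter table. Shares carry exact Clopper-Pearson 95% intervals. Every member with a summit was named, as were listed partners with one. No tests were made. Members, lists and motifs were chosen with earlier results of these data known. Some genes of the partner lists are not reported here.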

Additional observations from a re-analysis of the deposited data

How the results depend on the processing

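Of 54 alternative values, 49 stayed within 1.5 times the main count or within the main value's interval. The 30 genes with a summit became 17 when summits outside the gene were not counted. They were 27 at gene ends alone and 20 with summits at or above the median score. Leaving out the list's 3 highest-scoring summits could not change the count of 30, because the highest summit at these genes ranked 7th. That value is among the 49 and says nothing about how firm the count is. Windows of 250 and 500 bp gave the same gene counts as 1 kb, in total and in every role. The 20 lies exactly at the limit of 1.5 times and was counted as unchanged. The tally of 49 is therefore not a measure of how firm the results are. With 10 kb either side, the RAB-binding proteins had 4 genes with a summit and the other VPS complexes 5, against 2 and 3. With summits at or above the median score, the sorting nexins had 5, against 8, and retromer and retriever 2, against 4. Alternatives chosen after seeing the data gave 28 when each summit was assigned to the coding gene with the nearest end (RAB14 and RAB33A were lost), against 11.4% of all protein-coding genes, and 21 of 114 within 1 kb of the promoter start (18.4%), against 12.1%. The 21 was judged as a count against 30, although it comes from 114 genes and not 150. The median score of 4.22 stayed between 4.18 and 4.36. No paired analysis was possible because the summits form 1 list without replicates. Since no read depth was available, genes with no summit may still carry WSTF below detection.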
